A study of Mus musculus with 4 samples.

Results

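AP-1 is a transcription factor made of dimers of Fos and Jun proteins, and 8 mouse genes were followed here in brain tissue after a stroke: Fos, Fosb, Fosl1 and Fosl2 of the Fos family, Jun, Junb and Jund of the Jun family, and Atf3. They were taken by name, through the RefSeq accession that the array design gives for each probe. All 8 were on the array, with 10 probes and 28 spots, of 33269 features, 41174 probes and 43379 spots in all.

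The tissue came from male C57BL/6J mice aged 9 weeks. Their middle cerebral artery had been blocked permanently with a filament passed inside the vessel, saline had been given into a brain ventricle straight after, and tissue was collected at 6 h, per the labels. The 4 tissues were ischemic core, healthy core, ischemic penumbra and healthy penumbra. In a stroke of this kind blood flow is lost most fully in the core and is partly kept in the penumbra that surrounds it. Each of 4 two-color arrays set ischemic RNA, in one dye, against RNA of the matching healthy piece in the second dye. Ischemic RNA was in Cy5 on core array 1 and penumbra array 3, and in Cy3 on core array 2 and penumbra array 4. The labels name 3 mice per group without saying whether their RNA was pooled. They do not say whether healthy tissue was the opposite side of the same brains or came from other mice, so the healthy pieces may or may not carry the anesthesia, surgery and saline of the ischemic ones. They also do not say that the arrays of a region held separate extracts. Each dye-swapped pair was therefore counted as 1 replicate, and genes were called by size, with no p-value. Every ± on a ratio or on the level of a tissue is the SD between the 2 arrays of a pair (dye bias included). A ± on a level difference between regions is the SD between its Cy5 value and its Cy3 value.

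Fos and Jun proteins share a basic leucine zipper (bZIP), a helix that pairs with a partner and grips DNA. Jun proteins can pair with themselves or with Fos proteins, whereas Fos proteins need a Jun partner, and the dimers bind the sequence TGANTCA and the related cyclic AMP response element TGACGTCA. Several of the genes are immediate early genes, which neurons and glia transcribe within minutes of calcium entry, growth factors or stress and whose mRNAs are short-lived. Atf3 is a bZIP repressor and activator of the ATF/CREB family that is low in resting cells, is switched on by injury and stress kinases, and can pair with Jun proteins.

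In both regions the ischemic tissue held more Fos, Atf3, Fosb, Junb and Jun mRNA than healthy tissue. Fos stood at 10.1-fold in the core and 8.13-fold in the penumbra, and Atf3 at 9.26-fold and 7.93-fold. Jund, the most steadily expressed Jun gene in most tissues, showed no difference beyond its own spread. A gene was called when the mean of its swapped pair was at least 2-fold and each array was at least 1.5-fold the same way. By that rule 5 of the 8 genes were called higher in ischemic core, where 0.31% of 24538 features were, and 6 of 8 in ischemic penumbra, where 0.241% of 24930 features were. None of the 8 was called lower, against 0% of core features and 0.00401% of penumbra features. The median log2 ratio of the 8 genes was 1.18 in the core and 1.28 in the penumbra, beside -0.01 over all features in each region. These tissues are mixtures, so more or fewer cells of a type and more or less RNA per cell cannot be told apart.

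Ratios were centred on the bulk of all genes. Scaling to spike-in control transcripts instead would lower every log2 ratio by 0.48 in the core and by 0.42 in the penumbra. Under that scaling 3 of the 8 genes were called in each region, namely Fos, Fosb and Atf3, and over all features the calls became 31 higher and 30 lower in the core (76 and 0 without it) and 31 and 23 in the penumbra (60 and 1 without it). On the arrays, 0 spots were saturated, and the share well above background was 76.1% to 79.4% per dye. Median signals were 284 to 310 in Cy5 and 192 to 225.5 in Cy3, over backgrounds of 70 to 71 and 64 to 66. Neuron markers (Rbfox3, Snap25, Syt1 and Tubb3) were above background on both arrays in every tissue, 4 of 4. Their summed processed signal was 228988 to 232941 in ischemic core against 242101 to 245850 in healthy core. In the penumbra it was 187963 to 202426 in ischemic against 217011 to 226096 in healthy tissue. In each region 2 of 4 had log2 ratios below 0 on both arrays, 0 had them above 0 on both, and 0 were called. Neutrophil markers moved with ischemia: S100a8, S100a9 and Retnlg were all called higher, at log2 ratios of 2.11 to 2.49 in the core and 1.496 to 1.88 in the penumbra. Their summed processed signal was 10299 to 12115 in ischemic core against 1858 to 2031 in healthy core, and 7870 to 12008 in ischemic penumbra against 2331 to 2923 in healthy penumbra. The fourth, Ly6g, had no probe named here. Choroid plexus markers were higher in ischemic penumbra on both arrays for 4 of 4 genes, with 0 called and a median of 0.62, and their summed signal was 17931 to 21910 there against 11300 to 13928 in healthy penumbra. Meninges markers (Dcn, Lum, Igf2 and Col1a1) were likewise higher there on both arrays for 4 of 4 genes, with 0 called, a median of 0.46 and a summed signal of 9666 to 11664 in ischemic penumbra against 6821 to 8156 in healthy penumbra. The part of these markers in the values below was not tested.

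**Figure D1:**
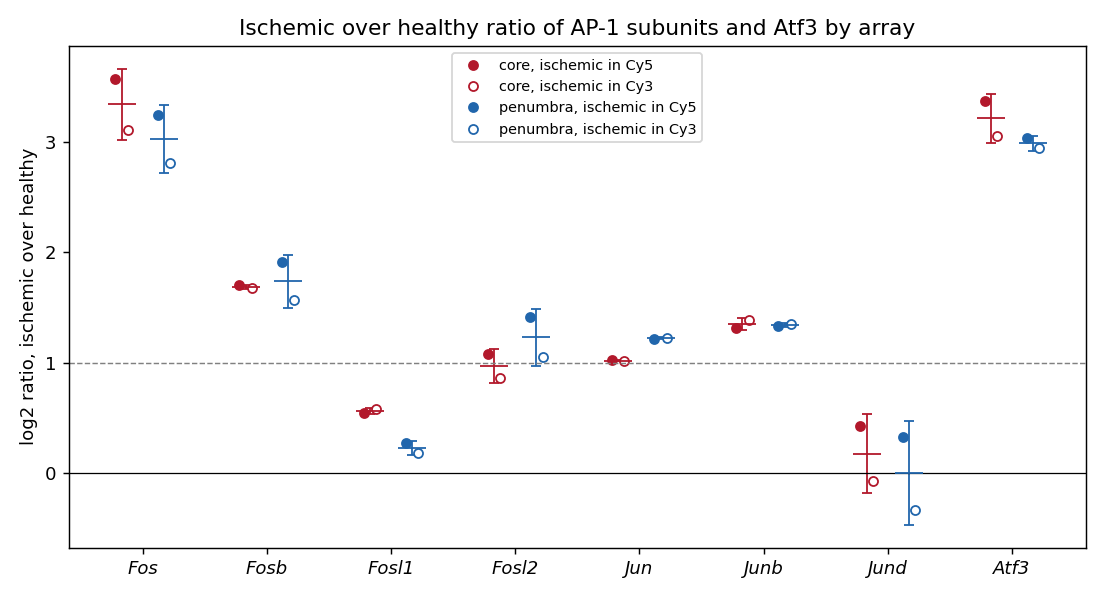
Log2 ratio of ischemic over healthy tissue for each of the 8 genes in core and penumbra, with a point for each array and the mean of the pair. Fos and Atf3 lie near 3 in both regions, Fosb, Junb, Jun and Fosl2 lie at 0.97 or above, and the arrays of Jund fall on both sides of 0.

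The promoters of the genes that moved most were read for the letters through which these genes are known to be switched on. The windows below run from 250 bases before to 50 bases after each start site and come from RefSeq, build GRCm38.p6, where 7 of the 8 genes had an entry; there was none for Fosl1. Fos and Atf3 are shown because their ratios were highest, and Jun because it holds the variant elements through which Jun is known to act on its own gene. The Fos window is chr12:85473640-85473939 on the plus strand, that of Jun is chr4:95052173-95052472 on the minus strand, and that of Atf3 is chr1:191183284-191183583 on the minus strand. Capitals mark matches, on either strand, to TGACG (the core letters of the cyclic AMP response element, contained in TGACGTCA), TGANTCA, TGACATCA, TTACCTCA and TGATGCAA.
Fos: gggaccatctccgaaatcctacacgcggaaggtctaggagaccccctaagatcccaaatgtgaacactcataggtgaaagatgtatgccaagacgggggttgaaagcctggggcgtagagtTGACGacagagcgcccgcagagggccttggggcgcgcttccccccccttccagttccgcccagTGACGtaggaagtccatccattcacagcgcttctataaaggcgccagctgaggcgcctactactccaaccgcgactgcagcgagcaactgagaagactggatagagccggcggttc
Jun: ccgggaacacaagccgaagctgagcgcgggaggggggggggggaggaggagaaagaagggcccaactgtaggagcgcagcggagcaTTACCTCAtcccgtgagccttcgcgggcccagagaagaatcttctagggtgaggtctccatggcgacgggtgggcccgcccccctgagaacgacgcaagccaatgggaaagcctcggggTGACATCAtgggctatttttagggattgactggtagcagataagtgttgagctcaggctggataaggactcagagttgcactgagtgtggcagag
Atf3: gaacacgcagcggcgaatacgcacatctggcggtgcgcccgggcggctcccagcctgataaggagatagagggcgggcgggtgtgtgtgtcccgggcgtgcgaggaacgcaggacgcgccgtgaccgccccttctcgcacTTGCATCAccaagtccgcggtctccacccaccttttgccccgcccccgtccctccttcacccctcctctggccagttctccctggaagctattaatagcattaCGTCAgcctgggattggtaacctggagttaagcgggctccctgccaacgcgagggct

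Counted from the start site, whose first base is 1, Fos held TGACG at -66 to -62, the place of its well-known response element, and again at -129 to -125. Jun held TGACATCA at -45 to -38 and TTACCTCA at -164 to -157. Atf3 held TGACG at -7 to -3 and TGATGCAA, a C/EBP-ATF composite element of the kind Atf4 binds, at -110 to -103, both on the other strand. Of the genes not shown, Fosb and Junb each had 1 TGACG, at -60 to -56 and at -106 to -102, and the windows of Fosl2 and Jund held none of these letters. TGACG was thus in 4 of 7 windows, where 20.8% of 32851 promoters hold it. TGACATCA, TTACCTCA and TGATGCAA were each in 1 of 7 windows, where 3.62%, 0.889% and 0.895% of promoters hold them. These letters, like TGACG, were picked as ones known to switch on genes of this group, so no enrichment can be read from the counts. The whole TGACGTCA, TGANTCA and the CArG box of serum response factor were in 0 of 7, beside 1.79%, 7.81% and 1.63% of all promoters. TATAAA was in 2 of 7 and in 13.6% of all. In Fos it lay at -33 to -28, before the start site, and in Junb at 1 to 6, on the start site itself. A match is a run of letters in these windows, not an occupied site, and the known CArG box of Fos lies further upstream than the window reaches.

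Among the Fos family, Fos, the first of these genes to respond in most neurons, had a processed signal of 11926 and 11722 in ischemic core (Cy5 and Cy3), against 1305 and 963 in healthy core. In the penumbra the signal was 11289 and 11420 in ischemic tissue, against 1579 and 1154 in healthy tissue. Ischemic and healthy values did not overlap in either region, and the ischemic ones were close to each other across regions. The log2 ratio was 3.57 and 3.11 on the core arrays, with a mean of 3.34 ± 0.32, and 3.24 and 2.81 on the penumbra arrays, with a mean of 3.02 ± 0.31. Fos ranked 5 among 24538 features in the core and 4 among 24930 in the penumbra. The array with ischemic RNA in Cy5 was the higher one in each region, by 0.46 in the core and 0.44 in the penumbra.

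Fosb encodes a Fos protein whose truncated form builds up in neurons under repeated activity. The probe for Fosb does not separate the forms. Its processed signal was 2589 and 3045 in ischemic core against 948 and 770 in healthy core, and 2828 and 3043 in ischemic penumbra against 1006 and 722 in healthy penumbra. The groups did not overlap. Log2 ratios were 1.70 and 1.67 in the core (mean 1.69 ± 0.02, 3.22-fold) and 1.91 and 1.56 in the penumbra (mean 1.74 ± 0.24, 3.33-fold), which ranked 19 and 13.

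Fosl2 and Fosl1 encode the Fos-related antigens, which lack the strong activation domain of Fos and act later. Fosl2 had processed signals of 1265 and 1252 in ischemic core against 645 and 578 in healthy core, and of 1232 and 1339 in ischemic penumbra against 545 and 421 in healthy penumbra. Its log2 ratio was 1.08 and 0.86 in the core (mean 0.97 ± 0.15, 1.96-fold), just under the call, and 1.41 and 1.05 in the penumbra (mean 1.23 ± 0.26, 2.34-fold), which was called. The core value was called with Agilent's processed signals (1.04), with a smaller background offset (1.01) and on core array 1 alone (1.08). A second, dimmer probe for Fosl2 had a log2 ratio of 0.37 ± 0.11 in the core and 0.47 ± 0.10 in the penumbra; it was not well above background on both arrays of either healthy tissue, so its ratio is a bound of at least 1.29-fold and at least 1.38-fold. The mean of both probes ended the penumbra call (0.85) and stood at 0.67 in the core. The spike-in scaling gave 0.49 in the core and also ended the penumbra call, at 0.81.

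Fosl1 was dim everywhere. Its processed signal was 56.6 and 64.6 in ischemic core against 25.1 and 28.5 in healthy core, and 68.2 and 73.2 in ischemic penumbra against 51.2 and 49.5 in healthy penumbra. Ischemic exceeded healthy on each array, with log2 ratios of 0.54 and 0.58 in the core (mean 0.56 ± 0.03, 1.48-fold) and 0.27 and 0.18 in the penumbra (mean 0.23 ± 0.06, 1.17-fold). Neither region was called, and with the spike-in scaling the penumbra value was -0.19. The processed signals of the scanner software, to which no offset was added here, gave 1.18 in the core, which was called, and 0.49 in the penumbra.

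**Figure D2:**
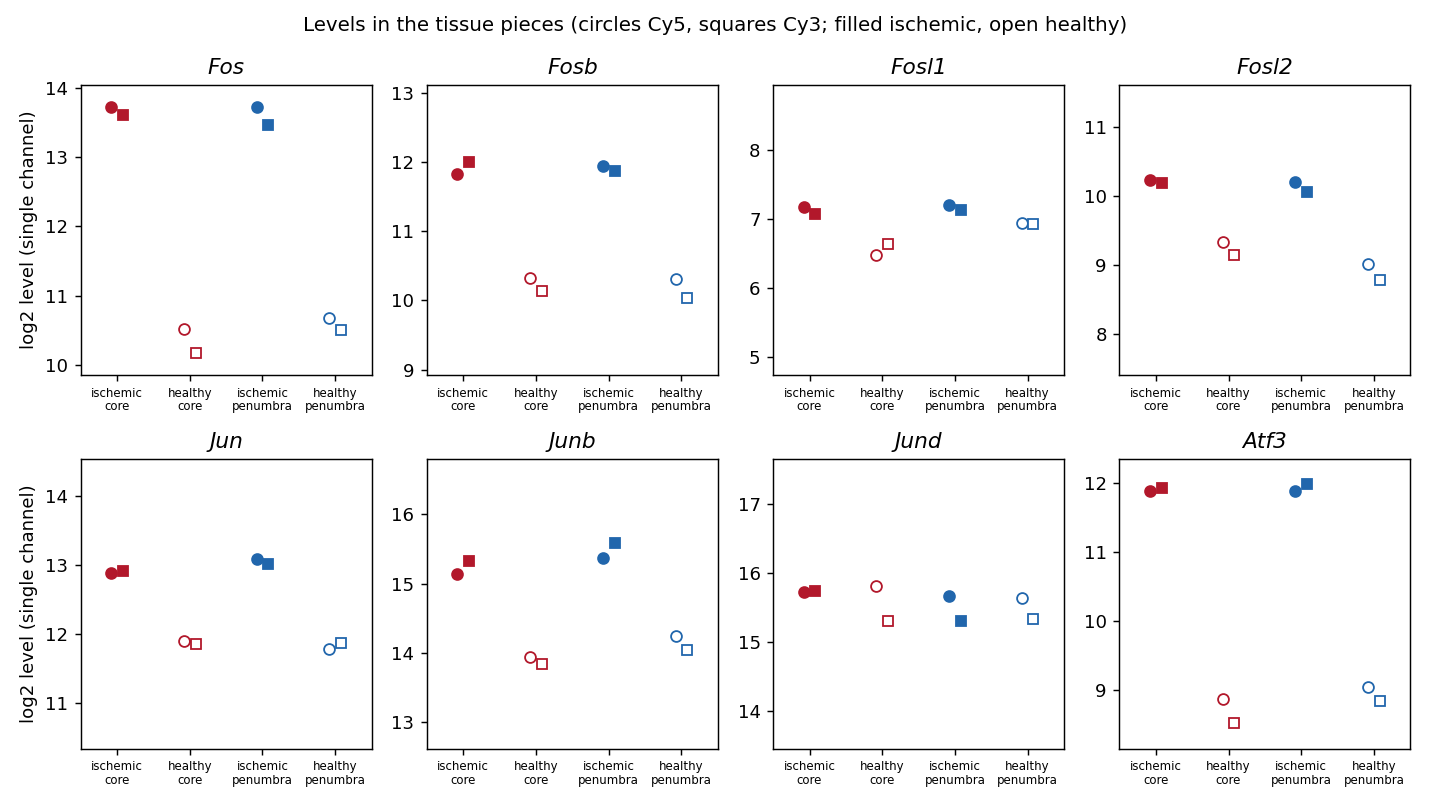
Log2 level of each gene in ischemic core, healthy core, ischemic penumbra and healthy penumbra, from the normalized single channels, with a point for each dye. The ischemic points of Fos, Fosb, Fosl1, Fosl2, Jun, Junb and Atf3 lie above all healthy points of the same gene, narrowly for Fosl1. Those of Jund overlap them. The share of all features separated in this way was not computed.

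In the Jun family, Jun is the classic partner of Fos and the substrate of the Jun N-terminal kinases. Its processed signal was 6571 and 6905 in ischemic core against 3458 and 3257 in healthy core, and 7148 and 8352 in ischemic penumbra against 3519 and 3092 in healthy penumbra. The log2 ratio was 1.02 and 1.01 in the core (mean 1.02 ± 0.01, 2.02-fold) and 1.22 and 1.23 in the penumbra (mean 1.22 ± 0.01, 2.33-fold). Jun thus had the closest agreement between dyes of the 8 genes in each region, and its core mean lay just above the threshold. The spike-in scaling ended both calls, at 0.54 in the core and 0.81 in the penumbra.

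Junb, which pairs with Fos and restrains Jun at many promoters, had a processed signal of 39349 and 48300 in ischemic core against 18508 and 15583 in healthy core. In the penumbra the signal was 46978 and 64499 in ischemic tissue against 24220 and 19064 in healthy tissue. The groups did not overlap in either region, as for each of these genes but Jund. The share of all features without such overlap was not computed. By ratio, 7 of 8 genes were above 0 on both arrays in each region. Over all features 26.9% were in the core and 30.3% in the penumbra. Log2 ratios were 1.31 and 1.39 in the core (mean 1.35 ± 0.05, 2.55-fold) and 1.33 and 1.35 in the penumbra (mean 1.34 ± 0.02, 2.53-fold). Its second probe stood at 1.37 ± 0.18 in the core and 1.39 ± 0.21 in the penumbra. With the spike-in scaling Junb reached 0.87 in the core and 0.93 in the penumbra, neither of them called.

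Jund, whose product is present in resting cells and often slows growth, had a processed signal of 50850 and 61350 in ischemic core against 54850 and 44299 in healthy core, and of 47122 and 48269 in ischemic penumbra against 56137 and 41649 in healthy penumbra. Ischemic and healthy values overlapped in both regions. The log2 ratio was 0.43 and -0.08 in the core (mean 0.18 ± 0.36) and 0.33 and -0.33 in the penumbra (mean -0.00 ± 0.47), so the pairs differed by more than their means. The array with ischemic RNA in Cy5 was higher by 0.50 in the core and by 0.66 in the penumbra. With the spike-in scaling the means were -0.30 in the core and -0.42 in the penumbra.

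Atf3 had a processed signal of 3207 and 3387 in ischemic core against 355 and 256 in healthy core, and of 3189 and 3936 in ischemic penumbra against 481 and 322 in healthy penumbra. The groups did not overlap. Log2 ratios were 3.37 and 3.05 in the core (mean 3.21 ± 0.22) and 3.04 and 2.94 in the penumbra (mean 2.99 ± 0.07), which ranked 6 and 5. Fos and Atf3 kept their calls under each processing setting tried, with means over both arrays between 2.86 and 3.40 for Fos and between 2.73 and 3.45 for Atf3 in the core, and between 2.61 and 3.07 for Fos and between 2.57 and 3.17 for Atf3 in the penumbra.

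Fos and Jun had 10 spots each on the array, which shows how much of the spread lies within an array. The usable spots of Fos ranged over 3.48 to 3.61 and 3.06 to 3.18 on the core arrays, and over 3.17 to 3.29 and 2.76 to 2.89 on the penumbra arrays. The spots of the 2 arrays of a pair did not overlap. Those of Jun ranged over 1.00 to 1.06 and 0.93 to 1.07 in the core, and over 1.17 to 1.33 and 1.17 to 1.29 in the penumbra, and the arrays of a pair overlapped.

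**Figure D3:**
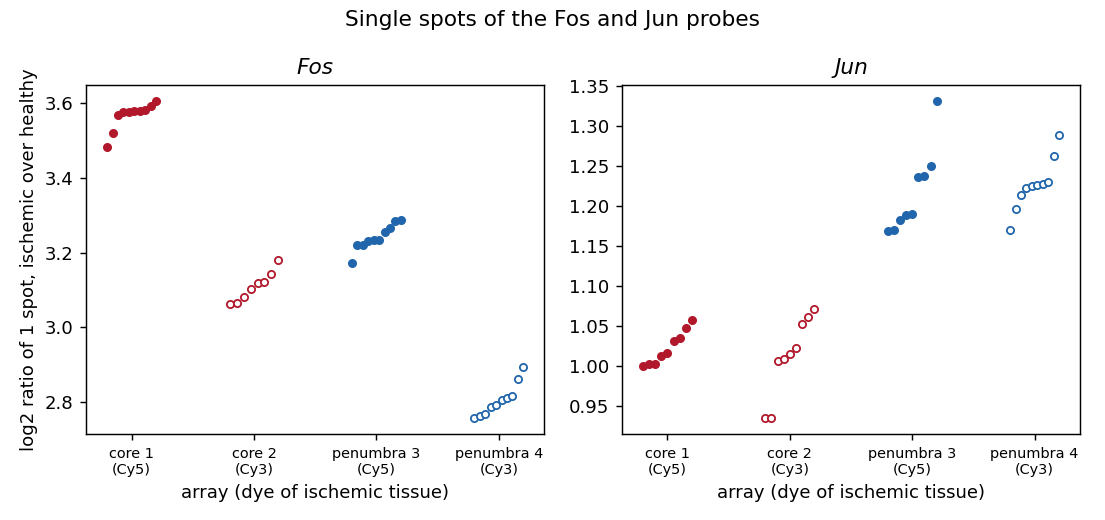
Log2 ratio of ischemic over healthy tissue for each usable spot of Fos and of Jun on the 4 arrays. The spots of Fos form a separate cluster on each array of a pair, the higher one having ischemic RNA in Cy5, while those of Jun overlap within each pair.

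Whether core and penumbra responded by different amounts was compared as the core ratio minus the penumbra ratio. That difference was called where it came to 1 log2 unit or more and the core arrays both lay above, or both below, the penumbra arrays, which 0.0594% of 25254 features met and 0 of the 8 genes did. It was 0.32 for Fos, -0.05 for Fosb, 0.33 for Fosl1, -0.26 for Fosl2, -0.20 for Jun, 0.01 for Junb, 0.18 for Jund and 0.22 for Atf3. The core arrays lay clear of the penumbra arrays for 3 of 8 genes, higher for Fosl1 and Atf3 and lower for Jun, and they did so for 30.4% of all features. With one array of the 4 left out, the difference ranged from 0.09 to 0.54 for Fos and from 0.07 to 0.38 for Atf3, and for Fosb, Junb and Jund it took both signs. None of the 8 genes thus had a difference between regions of the size of a call. In limma with a dye term, on 1 residual degree of freedom, the difference had an adjusted p of 0.0137 for Fos, 0.0124 for Fosl1 and 0.0421 for Fosl2, and without the dye term the lowest of the 8 was 0.866, for Fosl1.

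The levels themselves were compared between regions within each dye. Core and penumbra were on different arrays, so differences between regions and between arrays cannot be told apart in these levels. The core and penumbra pieces differed in their cell type markers. The summed signal of the 4 choroid plexus markers was 293 to 305 in ischemic core against 17931 to 21910 in ischemic penumbra, and 390 to 392 in healthy core against 11300 to 13928 in healthy penumbra. That of the 4 striatal neuron markers was 8431 to 8762 in ischemic core against 18509 to 19124 in ischemic penumbra, and 8263 to 8862 in healthy core against 20514 to 21925 in healthy penumbra. The part of this in the level differences and tissue orders below was not tested. Ischemic core and ischemic penumbra differed by no more than 0.25 in mean log2 level for any of the 8 genes, and 0 of 8 were called, beside 1.35% of 24880 features. Fos was 13.68 ± 0.08 in ischemic core and 13.61 ± 0.19 in ischemic penumbra, and Atf3 was 11.90 ± 0.03 and 11.93 ± 0.07. Of the 8, Junb (-0.25 ± 0.03), Jun (-0.15 ± 0.08) and Fosl1 (-0.05 ± 0.03) were lower in the ischemic core in both dyes, and Fosl2 (0.08 ± 0.07) and Jund (0.25 ± 0.26) were higher in both. Over all features 32.3% were lower in both dyes and 41.5% higher.

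In healthy tissue 0 of 8 were called, beside 1.13% of 24899 features. Fosl1 (-0.38 ± 0.12), Junb (-0.26 ± 0.06), Atf3 (-0.25 ± 0.11) and Fos (-0.24 ± 0.12) were lower in healthy core than in healthy penumbra in both dyes, and Fosl2 (0.34 ± 0.03) and Fosb (0.06 ± 0.05) were higher in both, where 32.1% of all features were lower and 41% higher in both dyes. Fos stood at 10.34 ± 0.25 in healthy core and 10.58 ± 0.12 in healthy penumbra, and Atf3 at 8.69 ± 0.25 and 8.94 ± 0.14. The order of the 4 tissues for Fos was ischemic core, ischemic penumbra, healthy penumbra, healthy core, with the ischemic pair differing by less than its spread over dyes and healthy core below healthy penumbra in both dyes. For Atf3, Junb and Fosl1 ischemic penumbra came first and healthy core last, for Jun ischemic penumbra came first and healthy penumbra last, and for Fosb and Fosl2 ischemic core came first and healthy penumbra last. The ischemic pair of Fosb and of Atf3 and the healthy pair of Jun also differed by less than the ± of their difference. The healthy pair of Fosb (0.06) differed by less than the SD over dyes of either level (0.14 in core, 0.19 in penumbra). So did the ischemic pair of Fosl1 (-0.046, with SDs of 0.078 and 0.050). The last place of Fosb and the first place of Fosl1 are therefore not resolved. Jund had no order beyond its spread.

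Related bZIP proteins can join AP-1 dimers or compete with them. Of 20 measured, 2 were called higher in ischemic core, 0 lower, with a median of 0.20, and 1 in ischemic penumbra, with a median of 0.17. Over all features 0.31% were called higher in the core and 0.241% in the penumbra, with a median of -0.01 in each. Nfil3, a bZIP repressor, had a mean log2 ratio of 1.504 ± 0.21 in the core and 1.59 ± 0.18 in the penumbra. Maff, a small Maf protein without an activation domain, lay at 1.07 ± 0.14 in the core and 0.76 ± 0.10 in the penumbra, where it was not called. Kinases and factors that act on Fos and Jun, such as the Jun N-terminal kinases and serum response factor, gave 0 of 19 called in either region, with medians of -0.01 in the core and -0.07 in the penumbra. Their values lay between -0.18 and 0.33 in the core and between -0.25 and 0.31 in the penumbra. Mapk10, the neuronal Jun N-terminal kinase and the brightest of them, had -0.06 ± 0.24 and -0.12 ± 0.20. Kinases are controlled mainly by phosphorylation, which these arrays do not measure.

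Of genes known as AP-1 targets, 19 of 21 were measured, and 2 were called higher in ischemic core and 1 in ischemic penumbra, with medians of 0.41 and 0.18. For these and the lists below, the shares called higher over all features were 0.31% and 0.241%, with medians of -0.01. Ptgs2, the inducible cyclooxygenase, reached 1.12 ± 0.03 in the core and 1.44 ± 0.03 in the penumbra. Ccl2, a chemokine that draws monocytes, came to 1.67 ± 0.21 in the core and -0.02 ± 0.21 in the penumbra. In the core 16 of 19 were above 0 on both arrays, where 26.9% of features were, and in the penumbra 13 of 19, where 30.3% were. Genes of the Atf4 stress pathway, which lies upstream of Atf3 when protein synthesis is stressed, gave 0 of 10 called in either region, although 9 of 10 were above 0 on both arrays in each. Their median was 0.26 in the core, with 0.34 in the penumbra. Values ran from 0.05 to 0.84 in the core and from 0.04 to 0.55 in the penumbra. Asns, asparagine synthetase and the brightest of them, had 0.05 ± 0.01 and 0.17 ± 0.17. Genes for the decay and turnover of Fos and Jun gave 0 of 9 called in either region, with medians of 0.07 and 0.14. Khsrp, a decay factor for AU-rich mRNAs and the brightest, had -0.04 ± 0.14 and -0.05 ± 0.01. Zfp36, picked after its value was seen, destabilizes AU-rich mRNAs and averaged 0.81 ± 0.02 in the core and 0.52 ± 0.05 in the penumbra, below the call.

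**Figure D4:**
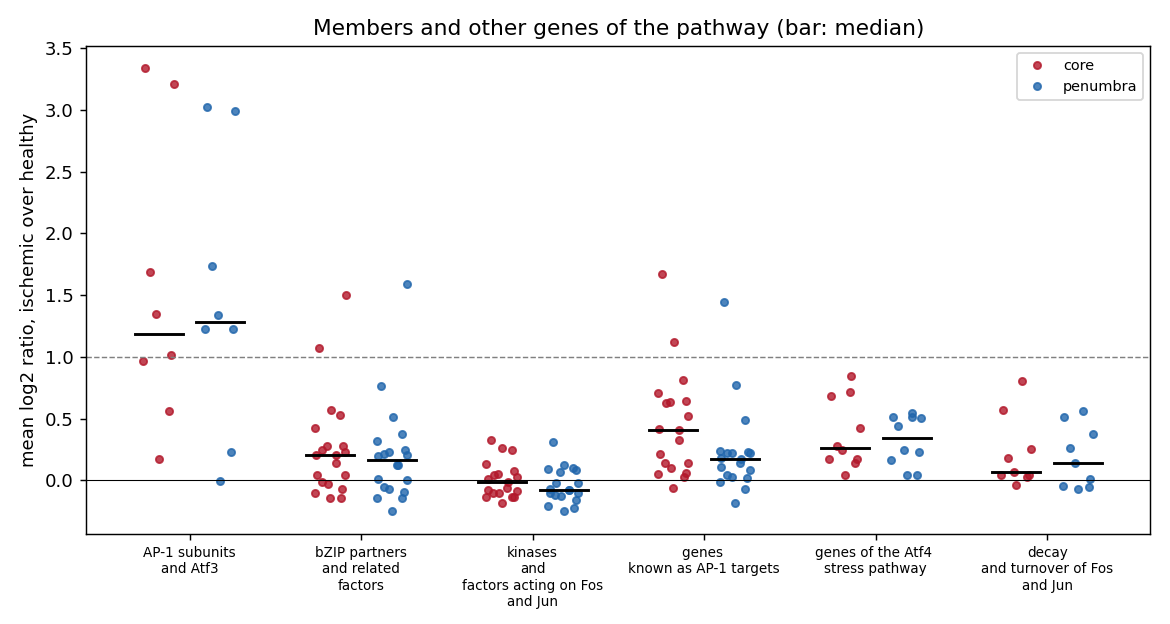
Mean log2 ratio of ischemic over healthy tissue for each measured gene of the 8 AP-1 genes and of the lists of related genes, in core and penumbra. Apart from Nfil3, Maff, Ccl2 and Ptgs2, the genes of the other lists stay below the 1 log2 line, while 5 of the 8 AP-1 genes in the core and 6 in the penumbra lie above it.

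For each of the 5 genes called in both regions, the named genes with the nearest pattern were found by the root mean square difference of the 4 log2 ratios, over 13631 named genes. Fosb had Egr4 at 0.08 and Egr1 at 0.15, both zinc finger immediate early factors. Jun had Pcsk1, a prohormone convertase, at 0.09 and Efcab6 at 0.10. Junb had Kcne4, a potassium channel accessory subunit, at 0.14 and Bdnf, a neurotrophin, at 0.15. Fos had Egr2, another zinc finger factor, at 0.33 and Hspa1b, an inducible heat shock protein, at 0.37. Atf3 had the same pair, Egr2 at 0.19 and Hspa1b at 0.44. This distance depends on the size of the ratios. Fos and Atf3 ranked 5 and 6 in the core and 4 and 5 in the penumbra, so few genes could lie near them. The shared pair therefore says little beyond similar size. The values of Hspa1b are uncertain, because its sequence is almost that of Hspa1a.

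As an alternative, limma was run over the arrays, fitted on all features with Benjamini-Hochberg adjustment. It asked for an adjusted p under 0.05 and also for at least 1 log2 unit. By that rule it called the same 5 genes in the core and the same 6 in the penumbra. Over all features limma called 75 of 24537 in the core and 61 of 24921 in the penumbra. Its adjusted p-values measure only the spread between arrays, which may be technical. They ran from 0.000369 (Atf3) to 0.00441 (Jun) among the 5 in the core, and from 0.000982 (Atf3) to 0.0146 (Fosl2) among the 6 in the penumbra. By the adjusted p alone, Fosl2 (0.0231) and Fosl1 (0.0280) passed in the core as well, so that 7 of 8 did. In the penumbra Fosl1 (0.159) did not. The share of all features passing by adjusted p alone was not counted, so the 7 of 8 has no background beside it. For Jund limma gave 0.767 in the core and 0.997 in the penumbra. With a dye term in the limma fit, on 1 residual degree of freedom, the adjusted p of Jund was 0.0180 in the core, for a log2 ratio of 0.18, and 0.979 in the penumbra, and that of Fosl1 in the penumbra was 0.00259.

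**Figure D5:**
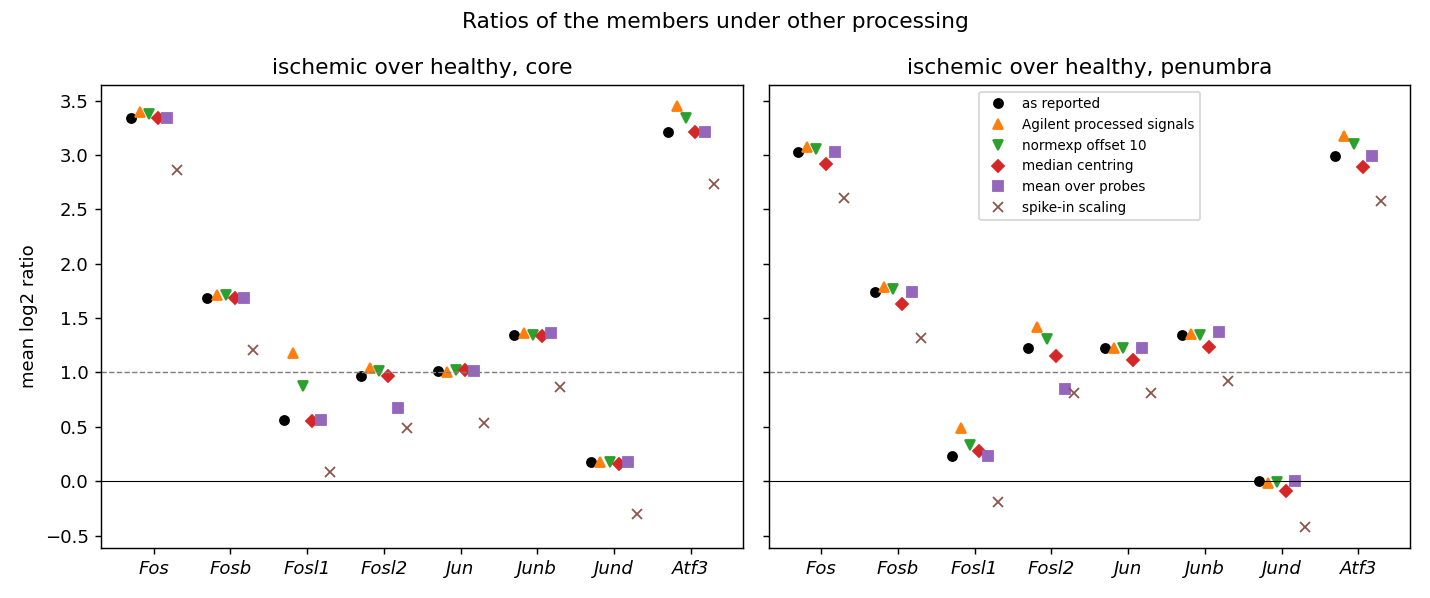
Mean log2 ratio of ischemic over healthy tissue for the 8 genes under each processing setting, in core and penumbra, with the call threshold drawn. The spike-in scaling takes Jun and Junb below the threshold in both regions, and Fosl2 in the penumbra. Fos, Fosb and Atf3 stay above it under each setting.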

How the data were processed

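Spot intensity in Cy5 and Cy3 was taken from the deposited scanner files (Agilent Feature Extraction 11.0.1.1, per the submitters' processing notes), and the deposited series table held log10 ratios of the processed Cy5 over the processed Cy3 signal (equal within 5e-06). With 0 columns of mean signal in the files, median signals were corrected with normexp (offset 50) on local background and normalized by loess within arrays in limma 3.58.1 (R 4.3.3), with control and outlier spots at weight 0 and then left out. Log2 ratios were turned to ischemic over healthy, and repeated spots were averaged. Probes were tested in a region where ischemic or healthy tissue, or both, had them well above background on each array, and the brightest such probe stood for its gene. Levels were single-channel values after Aquantile, compared within dye. The array's accessions named 23374 probes and 16535 genes through RefSeq GRCm38.p6. Spike-in scaling subtracted a region's ischemic over healthy shift, taken from the median over 10 transcripts on each swapped array, because the spike mixes differ by dye by design. Slide could not be tested, since there was 1 slide.

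The 8 members and all lists were chosen with earlier results of these data known. The text names every member, up to 3 called genes per list and region (or else the brightest), and the 2 nearest genes of each member called in both regions. Alternatives were the processed signals, another offset, median centring, spike-in scaling, the mean over probes, limma over arrays with and without a dye term, single dyes, and each array left out. The computation of calls was tested on simulated data. Tables used Python 3.11.15, pandas 2.3.3 and numpy 2.4.6, and plots matplotlib 3.10.9. The number of arrays limits the precision.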

Additional observations from a re-analysis of the deposited data

How the results depend on the processing

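No result for the 8 genes reversed a call. Under the spike-in scaling 3 of the 8 were called in the core and 3 in the penumbra, against 5 and 6 without it. With Agilent's processed signals, features called came to 245 in the core (230 higher, 15 lower) and 219 in the penumbra (189 and 30), against 76 and 61, and with a background offset of 10 to 115 in the core. Core and penumbra ratios differed by the size of a call for 179 features with processed signals (93 higher, 86 lower in the core), 36 with an offset of 10 and 2 by limma over arrays, against 15, and for 24 to 35 with one array left out. Healthy core against healthy penumbra gave 461 features in Cy5 alone and 862 with processed signals, against 282, and ischemic core against ischemic penumbra gave 543 in Cy3 alone and 1038 with processed signals, against 337. The causes of these shifts were not tested. On single arrays the log2 ratio of Jund ran from -0.08 to 0.43 in the core and from -0.33 to 0.33 in the penumbra. No paired analysis was possible because core and penumbra arrays share no replicate number. Each region rests on 1 dye-swapped pair, so nothing here measures spread between animals, and the value of the dim gene Fosl1 moved with the background correction.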
